A study of Mus musculus with 8 samples.

Results

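Connexins are the subunits of gap junction channels, and 8 connexin genes of the cochlea were followed here in mice with the microRNA genes Mir183 and Mir96 deleted: Gjb2 (protein Cx26), Gjb6 (Cx30), Gja1 (Cx43), Gjb1 (Cx32), Gjc1 (Cx45), Gjc3 (Cx29), Gja4 (Cx37) and Gja5 (Cx40). The genes were chosen by name, as the array features that the platform annotation links to exactly 1 gene symbol, and each of the 8 had 1 such feature among the 22180 genes measured in this way. Cochleae were taken at postnatal day 16 from 4 animals labelled miR-183/96 KO and 4 labelled control, which the study's design text calls wild type. The whole encapsulated cochlea was used, bone included, with both cochleae of an animal pooled as 1 replicate, and RNA was measured on Affymetrix Mouse Gene 2.0 ST arrays. For strain, sex and the construction of the knockout allele, nothing is given in the sources used here. All values are log2 expression values that the authors made with RMA (background correction, quantile normalization and a summary of each feature's probes), and a difference of 1 on this scale is a doubling. Probes differ in brightness, so the level of one gene is not set against that of another.

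In a gap junction, each of the apposed cells supplies a hexameric hemichannel made of connexins, and the docked channel passes ions and small molecules between the cells. In the cochlea, Cx26 and Cx30 form the epithelial network of supporting cells and the connective tissue network of spiral ligament fibrocytes and strial basal and intermediate cells, which are held to carry potassium away from hair cells and back towards the stria vascularis. Hair cells themselves are not part of these networks. Mutations of GJB2 are a frequent cause of hereditary deafness, and a mouse line without Cx30 was reported to lack the endocochlear potential.

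The deleted microRNAs share much of their seed, the bases that pair with target transcripts. Both are shown 5′ to 3′ with seed bases 2 to 8 in capitals, from RefSeq on GRCm38.p6, where they lie on the minus strand at chr6:30169506-30169528 and chr6:30169711-30169732.
mmu-miR-96-5p: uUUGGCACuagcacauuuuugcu
mmu-miR-183-5p: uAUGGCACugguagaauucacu
Whether connexin transcripts hold matches to these seeds was not analysed here. The label check rested on the Mir96 feature, which read 4.01, 4.26, 4.26 and 4.31 in knockout and 5.71, 5.26, 6.23 and 5.57 in control animals, replicates 1 to 4 in order. No array went against its label. The Mir183 feature was dim (mean 2.41, at percentile 3.5 of tested features) and checked nothing.

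Gjb2 and Gjb6 are neighbours on chromosome 14, and the windows around their start sites (250 bases before to 50 after) are shown with that of Gja1, whose values had the highest correlation of any member with those of Gjb6. Capitals mark matches, on either strand, to 3 motifs searched for. The GC box was searched as GGGCGG. For the AP-1 element the letters were TGANTCA, with N for any base. The TATA box was searched as TATAAA. The sequences are RefSeq's on GRCm38.p6, at chr14:57104653-57104952 (minus strand) for Gjb2, chr14:57133562-57133861 (minus strand) for Gjb6 and chr10:56377050-56377349 (plus strand) for Gja1.
Gjb2: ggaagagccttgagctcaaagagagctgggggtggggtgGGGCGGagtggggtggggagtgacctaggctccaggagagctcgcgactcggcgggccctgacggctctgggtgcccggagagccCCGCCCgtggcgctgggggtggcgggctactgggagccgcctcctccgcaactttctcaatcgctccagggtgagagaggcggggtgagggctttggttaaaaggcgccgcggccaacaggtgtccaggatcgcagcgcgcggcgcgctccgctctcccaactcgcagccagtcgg
Gjb6: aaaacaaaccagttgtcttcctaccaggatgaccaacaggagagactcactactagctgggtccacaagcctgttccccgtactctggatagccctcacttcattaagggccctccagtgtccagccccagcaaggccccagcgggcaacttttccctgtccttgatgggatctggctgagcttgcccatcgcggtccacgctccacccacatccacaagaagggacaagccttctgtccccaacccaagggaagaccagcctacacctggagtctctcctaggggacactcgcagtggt
Gja1: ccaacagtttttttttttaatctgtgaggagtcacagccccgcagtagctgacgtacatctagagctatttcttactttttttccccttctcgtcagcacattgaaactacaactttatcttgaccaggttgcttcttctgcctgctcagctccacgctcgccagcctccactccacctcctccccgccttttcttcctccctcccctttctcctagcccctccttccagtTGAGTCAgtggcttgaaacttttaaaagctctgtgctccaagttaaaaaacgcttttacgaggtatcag
The windows differed in composition. The Gjb2 window had 70% G and C and 2 GC box matches, the Gjb6 window 57.3% and none of the 3 motifs, and the Gja1 window 47.7% and 1 AP-1 match, beginning 19 bases before the start site. Over all 32851 windows in the table the median was 52.7% G and C, 35.7% held a GC box match, 13.6% a TATA box match and 7.81% an AP-1 match. A match is a description of the letters only. Of the members, 7 had a window in the table, and Gjc1 did not.

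None of the 8 connexin transcripts passed the test between genotypes. Knockout was compared with control in limma, and Benjamini-Hochberg adjustment ran over the 23521 features of 1 symbol. At an adjusted p of 0.05, 0 of 8 members were called, beside 3 of all features (0.0128%). The 3 features were not connexins. At an unadjusted p of 0.05, Gjb6 was lower and Gjb1 higher, 2 of 8, beside 14.3% of all features. In all 8 members the 2 groups overlapped, while groups did not overlap at 5.96% of all features. Of the 8 differences, 4 were negative and 4 positive, with a median of -0.03, and over all features 47.6% were negative, with a median of 0.01. In whole tissue, fewer cells of a type and less RNA per cell cannot be told apart.

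**Figure D1:**
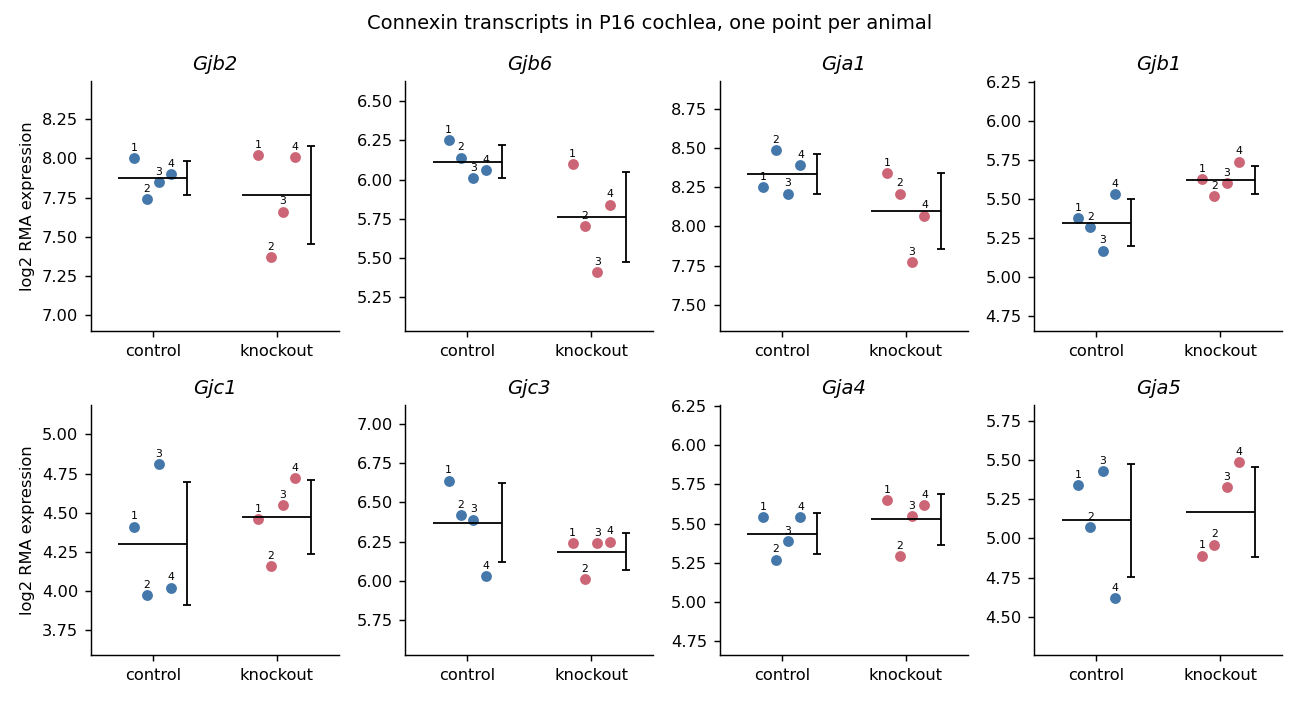
Log2 expression (y axis) of the 8 connexin genes in 4 control and 4 knockout animals; each point is 1 animal with its replicate number, horizontal lines are means and bars to their right are SD, and every panel spans the same range of log2 units. Knockout and control points overlap in all 8 panels, and Gjb6 in knockout replicate 1 (6.10) lies among the control values.

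Gjb2 encodes the connexin most often mutated in hereditary deafness. It read 8.02, 7.37, 7.66 and 8.01 in knockout animals 1 to 4 and 8.0, 7.74, 7.85 and 7.90 in control animals 1 to 4. Knockout animals 1 and 4 were above all controls, and animals 2 and 3 below all of them. The means were 7.76 ± 0.31 for knockout and 7.87 ± 0.11 for control (SD, n = 4), a difference of -0.11 (SE 0.14; limma adjusted p = 0.726). The 95% interval of the difference ran from -0.41 to 0.20.

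Gjb6, the partner of Gjb2 in the mixed channels of supporting cells and fibrocytes, had the most negative of the 8 differences. It read 6.10, 5.70, 5.41 and 5.84 in knockout and 6.25, 6.14, 6.01 and 6.06 in control animals. Knockout animals 2, 3 and 4 were below all 4 controls, and animal 1 lay between controls 4 and 2. The means were 5.76 ± 0.29 and 6.11 ± 0.10 (SD, n = 4), a difference of -0.35, or 1.27-fold (SE 0.14; 95% interval -0.65 to -0.05; unadjusted p = 0.0259, limma adjusted p = 0.309). The difference was -0.46 without knockout animal 1 and -0.23 without knockout animal 3, and neither passed (limma adjusted p = 0.396 and 0.550). Features of the same decile of mean level had a median difference of -0.04.

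Gja1 is the connexin of osteoblasts and osteocytes, of fibroblasts and of many vascular cells, and the bony capsule was part of the tissue. Its values were 8.34, 8.21, 7.77 and 8.07 in knockout and 8.25, 8.49, 8.21 and 8.39 in control animals. Knockout animals 3 and 4 were below all controls, and animals 1 and 2 were not. The means were 8.10 ± 0.24 and 8.33 ± 0.13 (SD, n = 4), a difference of -0.24 (SE 0.13; 95% interval -0.51 to 0.04; limma adjusted p = 0.402). The difference was -0.13 without knockout animal 3 and -0.32 without knockout animal 1, and -0.03 after cyclic loess normalization. Its decile of mean level, the highest, had a median difference of -0.21.

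The connexins of myelinating glia lay on opposite sides of 0. Gjb1 encodes the connexin of Schwann cell paranodes and incisures, and it read 5.63, 5.52, 5.60 and 5.74 in knockout and 5.38, 5.32, 5.17 and 5.53 in control animals. Knockout animals 1, 3 and 4 were above all controls, and animal 2 was below control 4. The means were 5.62 ± 0.09 and 5.35 ± 0.15 (SD, n = 4), a difference of 0.27, or 1.21-fold (SE 0.11; 95% interval 0.02 to 0.52; unadjusted p = 0.0336, limma adjusted p = 0.323).

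Gjc3, another connexin of Schwann cells that is also found at cochlear neurons, read 6.24, 6.01, 6.24 and 6.25 in knockout and 6.64, 6.42, 6.39 and 6.03 in control animals. Controls 1, 2 and 3 were above all knockouts, and control 4 was near the lowest of them. The means were 6.19 ± 0.12 and 6.37 ± 0.25 (SD, n = 4), a difference of -0.18 (SE 0.13; 95% interval -0.47 to 0.10; limma adjusted p = 0.508). Of the 9 measured members of the myelinating glia list, 0 passed, 8 were negative and the median was -0.22, with Mal at -0.57 (limma adjusted p = 0.291), Ugt8a at -0.44 (adjusted p = 0.299) and Mag at -0.35 (adjusted p = 0.364). The list level per animal, a mean of log2 values, ran from 6.02 to 6.41 in knockout and from 6.35 to 6.67 in control animals. In the deciles of these members 63.1% of features were negative on average. After cyclic loess 8 members were again negative, with a median of -0.08. The part of the list level in the Gjc3 and Gjb1 values was not tested.

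The connexins of vessels had differences of 0.05 to 0.17. Gja4, of arterial endothelium, read 5.65, 5.29, 5.55 and 5.62 in knockout and 5.54, 5.27, 5.39 and 5.54 in control animals, a difference of 0.09 (SE 0.12; 95% interval -0.17 to 0.35; limma adjusted p = 0.719). Gja5, which shares that endothelium, read 4.89, 4.96, 5.33 and 5.49 in knockout and 5.34, 5.07, 5.43 and 4.62 in control animals. Its difference was 0.05 (SE 0.18; 95% interval -0.35 to 0.45; limma adjusted p = 0.911), and it was negative after cyclic loess or repeated quantile normalization (-0.02 each). A second feature, assigned to Gja5 and Gpr89 together and so not counted as Gja5, differed by -0.16 (SE 0.10). Gjc1, found in smooth muscle and other mural cells, read 4.46, 4.16, 4.55 and 4.72 in knockout and 4.41, 3.97, 4.81 and 4.02 in control animals. Its difference was 0.17 (SE 0.18; 95% interval -0.23 to 0.57; limma adjusted p = 0.661). In all 3 genes knockout and control values were intermixed. Of the 12 endothelial markers 0 passed (limma; 0 also at an unadjusted p of 0.05), with a median of -0.12 and differences from -0.20 to 0.03.

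**Figure D2:**
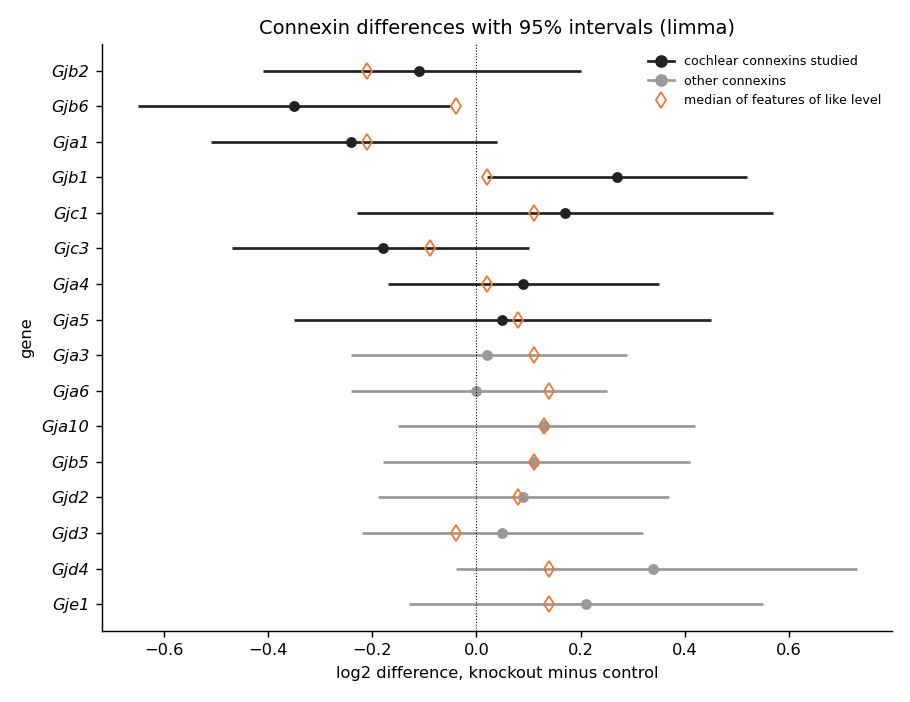
Log2 difference, knockout minus control (x axis), for the 8 connexin genes studied (black) and 8 other connexin genes (grey), with 95% intervals from limma as lines; open diamonds give the median difference of the features in the same decile of mean level. The intervals of Gjb6 and Gjb1 lie beside 0 (-0.65 to -0.05 and 0.02 to 0.52), and the other 14 cross it.

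The sign of a difference went with brightness across the whole array. Over the 10 deciles of tested features by mean level, the median difference was 0.13 at the dim end and -0.21 at the bright end. Gjb2 and Gja1 lay in the highest decile, where 87.7% of features were negative, Gjc3 in decile 8 (median -0.09), Gjb6 in decile 7 (-0.04), Gjb1 and Gja4 in decile 6 (0.02), Gja5 in decile 4 (0.08) and Gjc1 in decile 3 (0.11). Gja1 thus read close to its decile, and Gjb6 and Gjb1 were the members farthest from theirs. The SD of log2 values per array, its signal range, was 1.37 to 1.44 in knockout and 1.41 to 1.56 in control arrays. With signal range as a covariate in limma, 0 members passed, 6 of 8 were negative with a median of -0.29, and 4 had an unadjusted p under 0.05: Gjb1 at 0.39, Gjc3 at -0.40, Gjc1 at -0.42 and Gja5 at -0.47 (adjusted p = 0.816 each). The share of all features under that p with this covariate is not given here, so the 4 have no background to be read against. Signal range also differed between the genotypes, so the covariate and genotype are partly mixed in these values. After cyclic loess 0 passed and 4 were negative, with a median of 0.01.

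Partners that share a cell type were then compared within arrays, which removes only shifts that both share. The shift with brightness is not fully removed, since partners lay in unlike deciles. The decile medians were -0.04 for Gjb6 and -0.21 for Gjb2, -0.09 for Gjc3 and 0.02 for Gjb1, and 0.08 for Gja5 and 0.02 for Gja4. The comparison was made for 3 pairs, by two-sided exact permutation of the 70 assignments of arrays to groups (smallest p 0.0286), with adjustment over the 3 pairs. Gjb6 minus Gjb2 was -1.92, -1.67, -2.25 and -2.17 in knockout and -1.75, -1.60, -1.84 and -1.85 in control arrays. Knockout arrays 1, 3 and 4 were below all controls, and the change was -0.24 (exact permutation p = 0.200, adjusted p = 0.30). Without knockout animal 2 it was -0.35 (exact permutation p = 0.0286, adjusted p = 0.0858). It was -0.16 without knockout animal 3 (adjusted p = 0.556) and -0.42 after cyclic loess (exact permutation p = 0.114, adjusted p = 0.30). A single pair at the smallest p has an adjusted p of 0.0858, so 1 pair alone could not pass in this design, and nothing is drawn from the missed threshold.

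Gjc3 minus Gjb1 was 0.61, 0.49, 0.64 and 0.51 in knockout and 1.25, 1.10, 1.21 and 0.50 in control arrays. Controls 1, 2 and 3 were far above all knockouts, and control 4 lay among them. The change was -0.45 (exact permutation p = 0.114, adjusted p = 0.30), and without control animal 4 it was -0.63 (exact permutation p = 0.0286, the smallest that 1 pair can reach there, adjusted p = 0.0858). After cyclic loess it was -0.33 (exact permutation p = 0.2, adjusted p = 0.3). With the replicate number as a block the change was again -0.45 (exact sign-flip permutation p = 0.25, adjusted p = 0.375). Gja5 minus Gja4 changed by -0.04 (exact permutation p = 0.800, adjusted p = 0.800), with knockout arrays from -0.77 to -0.13 and control arrays from -0.92 to 0.04.

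**Figure D3:**
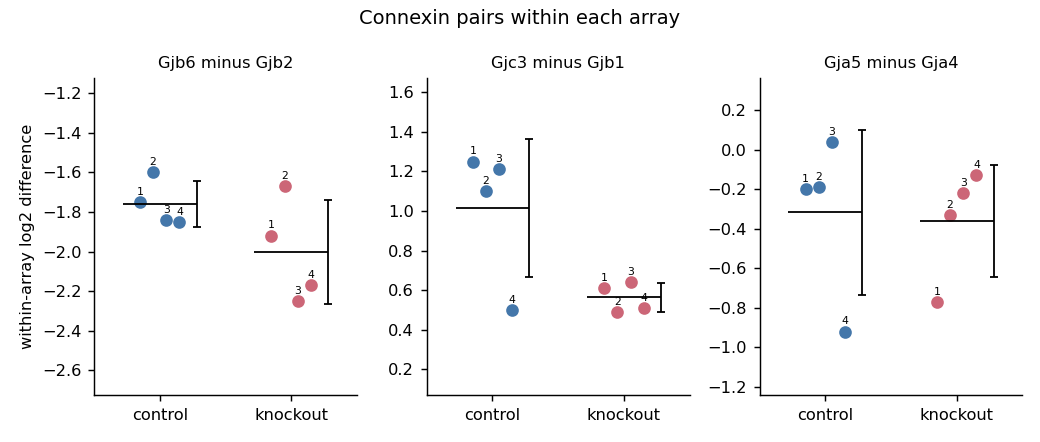
Within-array log2 difference (y axis) of 3 connexin pairs in control and knockout animals; points are animals with replicate numbers, horizontal lines are means and bars are SD. In the panel of Gjc3 minus Gjb1, control animals 1, 2 and 3 lie between 1.10 and 1.25 and control animal 4 (0.50) lies within the knockout range of 0.49 to 0.64.

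Across the 8 animals, Gjb6, Gja1 and Gja4 had relations with marker lists that passed adjustment, and the other 5 connexins had none. All relations were computed over the same arrays, and which arrays were normalized jointly is not given. The p-values came from exact permutation of the 40320 orders, adjusted over 64 relations of 8 connexins with 8 lists. Arrays were permuted across genotypes, so a genotype difference in both the connexin and the list also counts towards a relation. Within genotypes only r was computed, without a p-value. Of these, 7 passed by Pearson's r and 3 by Spearman's rho. Gjb6 followed the fibrocyte and mesenchyme list (genes such as Coch, Otos and Slc4a11) with r = 0.96 (exact permutation p = 0.000322, adjusted p = 0.0103) and rho = 0.90 (exact permutation p = 0.00456, adjusted p = 0.0730). Within genotypes r was 0.94, in the 4 knockout arrays alone 0.96 and in the 4 control arrays alone 0.80, and without knockout animals 2 and 3, farthest from the median of the list, it was 0.86. The list level was 8.75, 8.31, 8.18 and 8.42 in knockout and 8.69, 8.70, 8.53 and 8.65 in control animals. Knockout animal 1 was thus the highest of all 8 in the list and the one knockout animal in the control range of Gjb6, and animal 3 was the lowest in both. Of the 9 list members 0 passed between genotypes, 8 were negative and the median was -0.24, with Slc4a11 at -0.57 (limma adjusted p = 0.301) and Coch at -0.35 (adjusted p = 0.305). Of the 9 members 7 lie in the highest decile of mean level, and after cyclic loess 5 were negative with a median of -0.07. The part of the list level in the Gjb6 difference was not tested.

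Gja1 followed the endothelial and arterial list with r = 0.97 (exact permutation p = 4.96e-05, adjusted p = 0.00317) and rho = 0.98 (exact permutation p = 0.000397, adjusted p = 0.0254). Within genotypes r was 0.95, and without knockout animal 3 and control animal 2 it was 0.89. The list level varied little, from 6.14 to 6.34 in knockout and from 6.27 to 6.38 in control animals. Gja1 also went with the osteoblast and osteocyte list (r = 0.84, exact permutation p = 0.00432, adjusted p = 0.0449; rho = 0.93, exact permutation p = 0.00223, adjusted p = 0.0476; r = 0.78 within genotypes and 0.75 without knockout animal 3 and control animal 2) and with the fibrocyte list (r = 0.85, exact permutation p = 0.00491, adjusted p = 0.0449; rho = 0.81, exact permutation p = 0.0218, adjusted p = 0.139; r = 0.78 within genotypes and 0.81 without knockout animals 2 and 3). The osteoblast list level was 9.46, 9.14, 8.92 and 8.93 in knockout and 9.43, 9.57, 9.13 and 9.25 in control animals. Of the 8 osteoblast genes 0 passed, and all 8 were negative with a median of -0.23. All 8 lie in the highest decile of mean level, where 87.7% of features were negative with a median of -0.21, and after cyclic loess 6 were negative with a median of -0.04.

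Gjb6 went with the endothelial list too (r = 0.91, exact permutation p = 0.00231, adjusted p = 0.0317; rho = 0.81, exact permutation p = 0.0218, adjusted p = 0.139; r = 0.85 within genotypes and 0.81 without knockout animal 3 and control animal 2), but in the 4 control arrays alone r was 0.35. With the hair cell list, which holds the called gene Calb2, its r was 0.88 (exact permutation p = 0.00248, adjusted p = 0.0317; rho = 0.74, exact permutation p = 0.0458, adjusted p = 0.244; r = 0.77 within genotypes and 0.91 without knockout animal 3 and control animal 4) and 0.21 in the control arrays. All 10 hair cell markers were measured, 7 negative and 3 positive with a median of -0.04, and 1 passed. The 3 with the smallest p were Calb2 at -1.60, Myo6 at -0.53 and Pou4f3 at -0.10 (limma adjusted p = 0.000752, 0.301 and 0.647). Gjb6 also had r = 0.83 with the supporting cell list (exact permutation p = 0.00796, adjusted p = 0.0637), with 0.85 within genotypes. With the osteoblast and osteocyte list its r was 0.81 (exact permutation p = 0.0114, adjusted p = 0.0727), with 0.74 within genotypes. Both missed the adjusted threshold. Gjb2 and the supporting cell list had r = 0.81 (exact permutation p = 0.0110, adjusted p = 0.0727; rho = 0.83, exact permutation p = 0.0154, adjusted p = 0.139), which missed the adjusted threshold; within genotypes r was 0.80, and it was 0.82 without knockout animal 3 and control animal 1. Of the 13 supporting cell genes 0 passed, 8 were negative and 5 positive, and the median was -0.11. The differences ran from -0.42 to 0.17. Smallest in p were Fbxo2 at -0.42 (limma adjusted p = 0.301) and Otogl at -0.31 (adjusted p = 0.342). After cyclic loess the median of the 13 was 0.04.

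Gja4 ran opposite to the skeletal muscle list (r = -0.81, exact permutation p = 0.00124, adjusted p = 0.0265; rho = -0.93, exact permutation p = 0.00223, adjusted p = 0.0476). Within genotypes r was -0.79, and without knockout animal 1 and control animal 2, the extremes of the list, it was -0.75. Muscle is no part of the cochlea, and its list level ran from 5.64 to 6.86 in knockout and from 6.61 to 8.66 in control animals, with 0 of 10 members called and a median of -0.82. The smooth muscle and pericyte list, with 7 members, had 0 called and a median of -0.20. At an unadjusted p of 0.05 in limma, 2 members each of the supporting cell, fibrocyte, myelinating glia, osteoblast and hair cell lists were lower (of 13, 9, 9, 8 and 10). Of the muscle list 5 of 10 were lower and of the smooth muscle list 0 of 7, beside 7.25% of all features. In these lists 0 members were higher. After cyclic loess 3 of the muscle list and 1 of the fibrocyte list were lower, and the counts of the other lists stayed the same. The 7.25% belongs to the values as deposited, and the share of all features after cyclic loess is not given here.

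**Figure D4:**
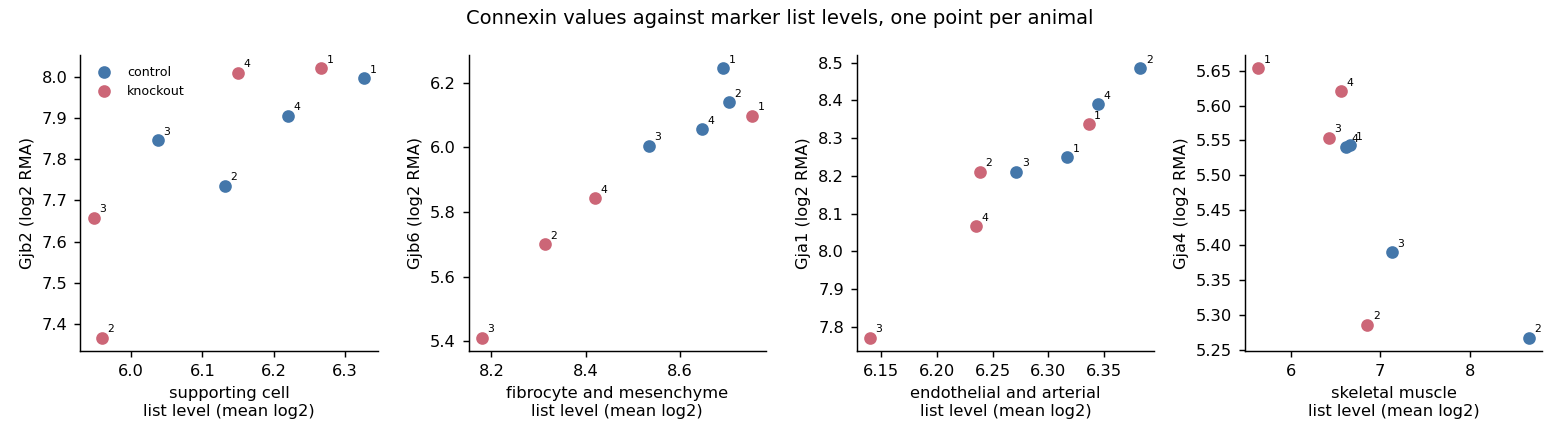
Log2 expression of Gjb2, Gjb6, Gja1 and Gja4 (y axes) against the mean log2 level of a marker list (x axes) in 4 control and 4 knockout animals, numbered by replicate. Gjb6 rises with the fibrocyte list (r = 0.96) with knockout animal 3 lowest in both, and Gja4 falls with the skeletal muscle list (r = -0.81).

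Among themselves, the connexins gave 28 relations, and 0 passed adjustment by either measure. The highest was that of Gjb6 and Gja1 (r = 0.84, exact permutation p = 0.0119, adjusted p = 0.306; rho = 0.76, exact permutation p = 0.0368, adjusted p = 0.343), which was 0.75 within genotypes, 0.07 in the control arrays alone and 0.52 without knockout animal 3 and control animal 2. The neighbours Gjb2 and Gjb6 had r = 0.59 (exact permutation p = 0.120, adjusted p = 0.475; rho = 0.50, exact permutation p = 0.216, adjusted p = 0.605). Without knockout animals 2 and 3 it was -0.16, so that relation rested on those arrays.

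The genes most like each member over the 8 arrays, among 14525 genes with a mean of at least 5, are given as a description. For Gjb6 they were Sparcl1 (r = 0.982), Esrrb (r = 0.963) and Evl (r = 0.962). For Gja1 they were Lox (r = 0.992), which encodes the collagen cross-linking enzyme lysyl oxidase, Pros1 (r = 0.988) and Ift57 (r = 0.981). For Gjb2 they were Fpgt (r = 0.950), Id1 (r = 0.949) and Tradd (r = 0.934). None of these 9 genes was a connexin, and no gene appeared for more than 1 member.

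The rest of the family and its partners gave no call. A further 8 connexin genes were measured. In limma 0 passed, and 0 also at an unadjusted p of 0.05. Their differences ran from 0.00 to 0.34 with a median of 0.10, and Gjd4 (0.34, limma adjusted p = 0.389), Gje1 (0.21, adjusted p = 0.525) and Gja10 (0.13, adjusted p = 0.625) had the smallest p. Most of these features were dim, in deciles whose median was also positive, and after cyclic loess their median was 0.00. Among the 3 pannexins, relatives of connexins in channel topology, Panx3 was at -0.39 (95% interval -0.68 to -0.10; unadjusted p = 0.0117, limma adjusted p = 0.301), Panx1 at -0.16 and Panx2 at 0.05. Panx3 is a channel of osteoblasts and chondrocytes. It read 7.21, 6.91, 6.70 and 6.94 in knockout and 7.19, 7.52, 7.12 and 7.50 in control animals, with knockout animals 2, 3 and 4 below all controls. After cyclic loess normalization its difference was -0.20 (unadjusted p = 0.0952), and its decile of mean level had a median of -0.21.

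Scaffold and adhesion partners of gap junctions were also without a call. Of 10 listed genes 8 were measured, 0 passed (limma; 0 also at an unadjusted p of 0.05) and the median was -0.14, with Ctnnb1 (beta-catenin) at -0.23 (limma adjusted p = 0.386), Tjp1, the scaffold that binds Cx43, at -0.21 (adjusted p = 0.408) and Cav1 at -0.25 (adjusted p = 0.408). After cyclic loess the median of these 8 was 0.06, with 3 negative where 7 had been. In the potassium and endolymph route, the transporters and channels that the gap junction networks serve, 11 of 16 listed genes were measured and 0 passed. Of the 11, 7 were negative and 4 positive, from -0.41 to 0.15, with a median of -0.15. At an unadjusted p of 0.05, 4 were lower, beside 7.25% of all features. After cyclic loess the median was -0.10 and 1 was lower at that p, Slc1a3 at -0.37 (limma unadjusted p = 0.00397). For that setting the share of all features is not given here. Atp1b1, a sodium pump subunit, was at -0.38 (limma adjusted p = 0.291), Slc12a2, the basolateral chloride cotransporter of strial marginal cells, at -0.41 (adjusted p = 0.305) and Slc1a3, the glutamate transporter of cells around inner hair cells, at -0.29 (adjusted p = 0.305). In these 3 of the 11 genes, named for the smallest p of the list, all knockout values were below all control values. Such separation was seen at 2.65% of all features. It also held for 2 of 9 myelinating glia, 2 of 8 osteoblast and 2 of 10 hair cell markers. Atp1b1 and Slc12a2 lie in the highest decile of mean level, where 87.7% of features were negative. After cyclic loess they were at -0.23 and -0.19. Slc1a3 lies in decile 4, with a median of 0.08.

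**Figure D5:**
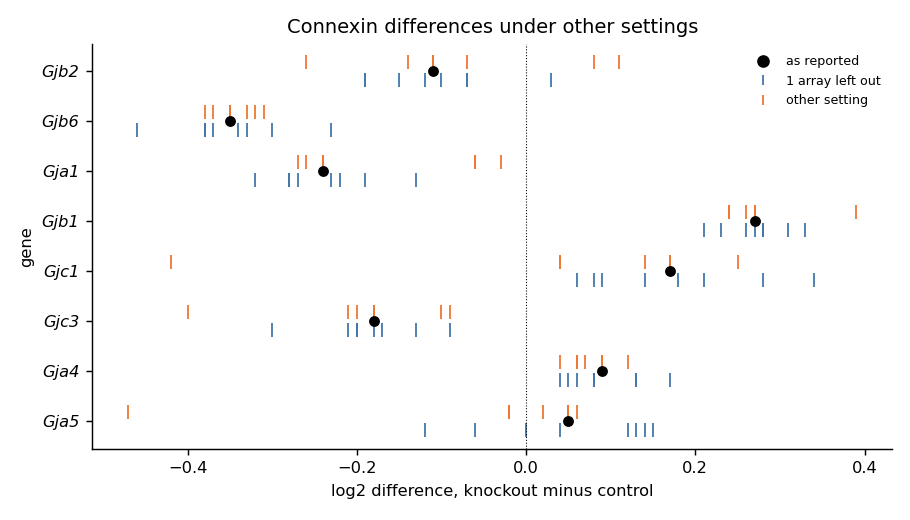
Log2 difference, knockout minus control (x axis), of each connexin gene as reported (black) and under other settings: blue ticks leave out 1 array each, orange ticks change normalization, model or filter. Gjb6 stays between -0.46 and -0.23 and Gjb1 between 0.21 and 0.39, while Gjb2, Gjc1 and Gja5 cross 0.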

How the data were processed

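The deposited table held log2 expression values of 41345 features on 8 arrays, which the authors computed by gene-level RMA (Expression Console), per the labels and processing notes. That they are log2 follows from their range, 0.90 to 13.47. Nothing on the program's version, the annotation release or which arrays were normalized jointly is given in the sources used here, and no detection call, scan date or batch was used. The platform annotation linked 23521 features to 1 symbol, 1814 to several and 16010 to none. Arrays correlated at 0.947 to 0.976, and none was a copy of another. The number of arrays limits the precision.

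Genotype was tested with limma 3.58.1 in R 4.3.3 (lmFit, eBayes with intensity trend) on all features of 1 symbol, with Benjamini-Hochberg adjustment and a threshold of 0.05, and 95% intervals use the moderated spread. A gene's feature was the one with the highest mean. The steps were tested on simulated data, and the share of simulated differences that was called is not reported here. Named were the 8 members, the 3 genes most correlated with each of Gjb2, Gjb6 and Gja1, and up to 3 genes of smallest p per list. Members and lists were chosen with earlier results of these data known. List genes not measured as 1 symbol were not analysed here. Same-numbered animals deviated together at correlations of 0.06, 0.21, 0.21 and -0.29, so the numbers were not taken as pairs.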

Additional observations from a re-analysis of the deposited data

Results flagged for a closer look

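Of 48 groups of 4 values checked (members, pairs and list levels in each genotype), 2 had a lone value far from the others by Dixon's ratio, and chance gives about 1 in 20. Gjc3 in knockout animals had a ratio of 0.936, since animal 2 read 6.01 and the other 3 read 6.24 to 6.25. The level of the myelinating glia list in knockout animals had a ratio of 0.868, with animal 2 at 6.02 and the other 3 at 6.36 to 6.41.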

How the results depend on the processing

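The count of members called was 0 in every setting run: the replicate block, eBayes without trend or with robust variance, all features, features with a mean of at least 5, median-centring, repeated quantile normalization, cyclic loess, array weights, signal range as a covariate, each array left out and a threshold of 0.1. The lowest adjusted p of any member was 0.168, for Gjb6 without control replicate 3. With the replicate number as a block, Gjb6 was at -0.35 (limma adjusted p = 0.268) and Gjb1 at 0.27 (adjusted p = 0.294), with 0 members called, and the pair Gjb6 minus Gjb2 at -0.24 (exact sign-flip permutation p = 0.125, the smallest possible). Gjb6, Gja1, Gjb1, Gjc3 and Gja4 kept their sign in all 18 settings with a value. Signs turned for Gjb2 after repeated quantile normalization (0.08) and cyclic loess (0.11), for Gja5 in the same settings (-0.02 each) and with signal range as a covariate (-0.47), and for Gjc1 with that covariate (-0.42). Leaving out 1 array gave -0.19 (without knockout replicate 1) to 0.03 (without knockout replicate 2) for Gjb2, -0.12 (without control replicate 4) to 0.15 (without control replicate 3) for Gja5, 0.06 (without control replicate 2) to 0.34 (without control replicate 3) for Gjc1, -0.30 (without control replicate 4; unadjusted p = 0.0293, limma adjusted p = 0.612) to -0.09 (without control replicate 1) for Gjc3, 0.04 (without control replicate 2) to 0.17 (without knockout replicate 2) for Gja4, -0.35 to -0.16 for Gjb6 minus Gjb2, -0.63 to -0.37 for Gjc3 minus Gjb1 and -0.24 to 0.09 for Gja5 minus Gja4, whose sign turned without knockout replicate 1 or control replicate 3. The cause was not tested. Gjc1 has no value under the filter on mean level, and the other feature of a member could not be tried, since each has 1.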

Other observations

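The signal range of each array (its SD of log2 values) was also set against the 8 connexins, and 0 of the 8 relations passed adjustment. The closest was Gjc1, at r = -0.83 over the 8 arrays (exact permutation p = 0.0149, adjusted p = 0.119) and rho = -0.81 (exact permutation p = 0.0218, adjusted p = 0.0871), with -0.95 within genotypes and -0.56 without control animals 2 and 4. Gja1 had r = 0.68 (exact permutation p = 0.0533, adjusted p = 0.213) and rho = 0.81 (exact permutation p = 0.0218, adjusted p = 0.0871), with 0.46 within genotypes and 0.44 without the same animals.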
